A study of Mus musculus with 8 samples.

Results

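Forkhead factors are transcription factors that share a winged helix DNA-binding domain, and 9 of their genes with known roles in heart and vessels are described here: Foxc1, Foxc2, Foxf1, Foxf2, Foxp1, Foxp2, Foxp4, Foxo1 and Foxo3. The members are all probe sets whose annotation is exactly 1 of these symbols, which gave 31 of the 45101 probe sets of the array, for 9 of 18195 genes with such a probe set. Another 1 probe set, annotated to Foxo3 together with a second gene, was left out. Of the 31, 22 passed a filter on low signal and were tested.

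The RNA came from the atrioventricular canal of mouse hearts, where endocardial cells invade a swelling of matrix to form the cushions from which valves and septa are built. The 4 control pools were Gata4flox/flox, and the 4 mutant pools were Gata4flox/flox; T2Cre+, named Gata4T2del, on a mixed C57BL6/129 background. T2Cre is Cre recombinase driven by the Tie2 promoter, so the deletion reaches endothelium and its descendants in the cushions, and the canal muscle keeps Gata4. Each pool held 10 dissected canals and gave 50 ng of RNA for amplification and 1 Affymetrix whole-genome mouse array. The labels do not give the control pools a Cre transgene, and they do not state the embryos' age. The labels do not say whether pools came from separate litters, so p-values measure the spread between these pools.

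Foxc1 and Foxc2 are closely related and act together in vessels, the heart field, neural crest and the mesenchyme of cushions and somites. Foxf1 and Foxf2 act in splanchnic mesoderm and endothelium and respond to hedgehog signals. Foxp1, Foxp2 and Foxp4 are repressors that can pair with each other, and Foxp1 is needed for cushion and outflow tract development. Foxo1 and Foxo3 are kept out of the nucleus by Akt and activate genes of cell cycle arrest, stress defence and vessel growth.

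Foxc1 and Foxf2 are next to each other among the protein-coding genes of mouse chromosome 13, between Foxq1 and Gmds. Foxf1 and Foxc2 lie on chromosome 8 with Mthfsd between them, and Irf8 and Foxl1 are their outer neighbours. RefSeq (GRCm38.p6) gave promoter windows for 6 of the 9 genes, 8 windows in all because Foxp1 has 3 starts. Foxc2, Foxf1 and Foxp2 had no entry. The windows of the chromosome 13 pair, shown because their partners Foxc2 and Foxf1 form the second pair, were the 250 bases before the start at chr13:31806396-31806645 (plus strand) for Foxc1 and chr13:31625566-31625815 (plus strand) for Foxf2.
Foxc1: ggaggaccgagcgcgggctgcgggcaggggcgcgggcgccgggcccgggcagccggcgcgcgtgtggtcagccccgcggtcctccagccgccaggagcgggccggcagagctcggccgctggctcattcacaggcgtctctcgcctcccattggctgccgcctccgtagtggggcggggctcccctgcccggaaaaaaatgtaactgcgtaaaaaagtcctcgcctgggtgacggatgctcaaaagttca
Foxf2: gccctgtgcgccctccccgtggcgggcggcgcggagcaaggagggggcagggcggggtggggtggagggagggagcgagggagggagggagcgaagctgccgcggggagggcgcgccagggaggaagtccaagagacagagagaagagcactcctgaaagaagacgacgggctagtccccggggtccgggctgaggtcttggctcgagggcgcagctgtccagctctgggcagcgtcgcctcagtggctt
Both are rich in G and C, 70.8% and 71.6%, against a median of 52.4% over all 32851 windows. The GATA motif AGATAA was searched on both strands and occurred in 0 of the 8 member windows and in 9.99% of all windows. The forkhead motif GTAAACA occurred in 0 of the 8 and in 3.17% of all. Capitals would mark a match, so there are none. These are letter searches of 250 bases and say nothing about binding.

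All values below are log2(signal + 16) after quantile normalization unless a signal is named. The added 16 shrinks changes of dim genes, and quantile normalization moved them either way. Against the authors' scaling without it, the change of Foxp4 1431088_at went from 0.52 to 0.84. That of Foxp2 1440108_at went from -1.05 to -0.58, and that of Foxc1 1419486_at from -0.44 to 0.25. A change is mutant minus control from limma. A probe set counts as above background where its signal lies over the 90th percentile of the 27 bacterial controls printed on that array. That limit was a signal of 316 on control 2 and 269.5 on control 3, but 51.1 and 97.5 on the other controls and 21.4 to 65.4 on the mutants. The share of probe sets above background was 44.4% to 61.0% in controls and 64.1% to 72.6% in mutants. Markers above background on all 8 arrays were 19 of 20 cardiomyocyte, 17 of 19 cushion mesenchyme and 13 of 23 endothelial. So were 12 of 15 epicardial markers. Whether the pools held other parts of the heart was not tested. In whole canals, fewer cells of a type and less RNA per cell cannot be told apart. Gata4 itself had a change of -0.15 (SE 0.11, adjusted p = 0.585) on its brighter probe set. The dimmer one had 0.98 (SE 0.45, adjusted p = 0.388) and exceeded background on 2 controls and 4 mutants. Neither was placed against the deleted stretch, so neither checks the labels.

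**Figure D1:**
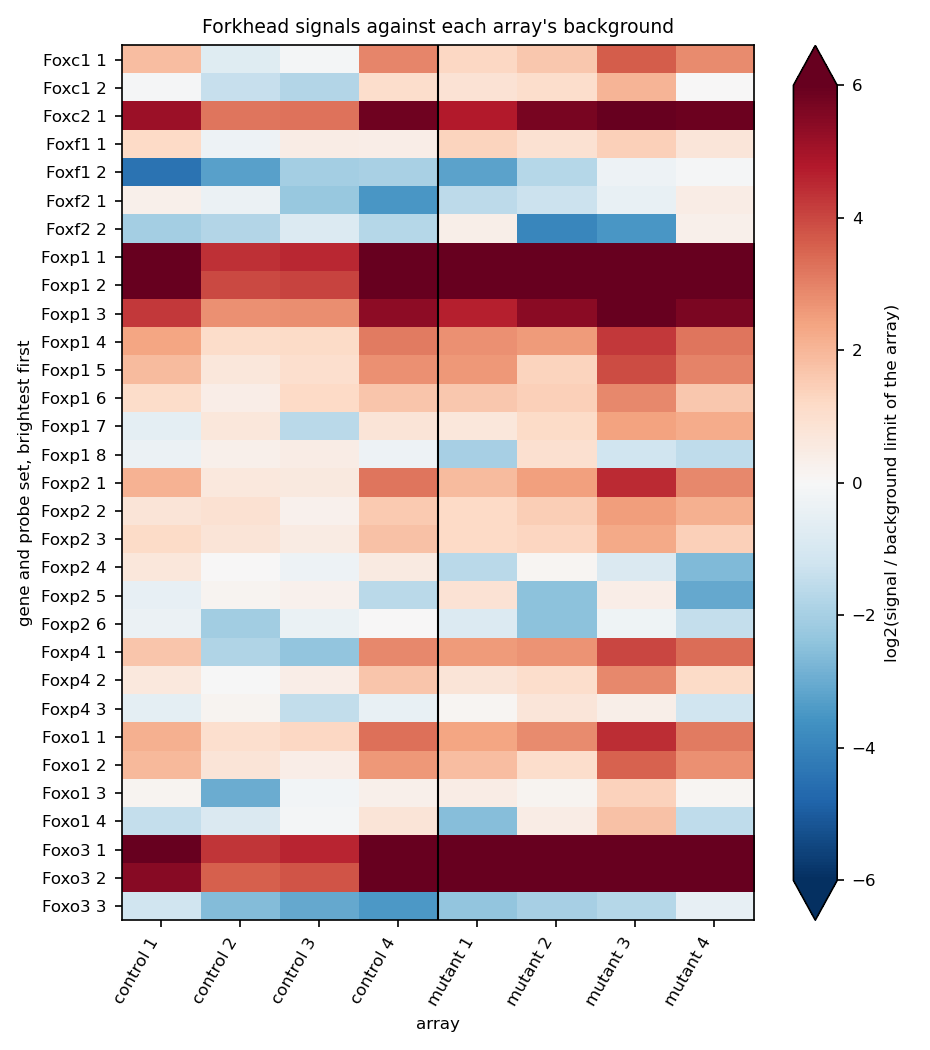
Heat map of log2(signal divided by the background limit of that array) for the 31 forkhead probe sets, in rows by gene with the brightest first, on the 4 control and 4 mutant arrays. Red is above and blue below the limit. The single Foxc2 row and the first rows of Foxp1 and Foxo3 are red on every array, 14 rows in all are red throughout, and rows near the limit are paler or blue on controls 2 and 3.

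Foxc2 was lower in all 4 mutant pools than in any control pool. Its only probe set, 1416693_at, read 11.72, 11.74, 11.54 and 11.39 (controls 1 to 4) against 10.79, 11.25, 11.05 and 10.94 (mutants 1 to 4). The groups did not overlap, and control 4 and mutant 2 were the nearest values. The change was -0.61 (SE 0.11, 95% interval -0.84 to -0.38), from 11.60 ± 0.17 to 11.01 ± 0.19 (SD, n = 4 each). This is 0.655 times the control level, with an interval of 0.558 to 0.769.

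With an adjusted p of 0.0639 (limma), Foxc2 just missed the threshold of 0.05, and it ranked 14th by p among the 27022 probe sets tested. On the authors' own scale its signals were 3436, 2900, 2567 and 2876 in the controls and 1793, 2525, 2286 and 2016 in the mutants, again without overlap, though control 3 and mutant 2 lay close together. On that scale the change was -0.57 and passed (adjusted p = 0.0487). Leaving out 1 array at a time gave changes of -0.67 to -0.57 and adjusted p of 0.0134 to 0.125, and 5 of the 8 fits passed. They were those without control 1, control 3, control 4, mutant 2 or mutant 3. Without control 1 or control 4 the unadjusted limma p of Foxc2 was larger, 0.000727 and 0.0002 against 3.31e-05 with all arrays. In those 2 fits 1425 and 1339 of all probe sets passed as higher, so the lower adjusted p there does not reflect a clearer Foxc2 difference. Without controls 2 and 3 together the change was -0.57 (SE 0.14) and the adjusted p was 0.375. With no array weights the change was -0.59 (SE 0.12, limma adjusted p = 0.127). Plain eBayes, without trend and robust, gave -0.61 (SE 0.14, adjusted p = 0.350). Centring each array on its median turned the direction: the fitted Foxc2 change was 1.05 and passed as higher in the mutants (adjusted p = 0.000468). Under that scaling the tested probe sets had a median change of 1.13, and Foxc2 lay at -0.08 relative to it. The medians of controls 2 and 3 were signals of 268 and 254, below those arrays' own background limits of 316 and 269.5. On every other array the median lay above the limit, so centring set background on controls 2 and 3 against signal elsewhere. With the 3 prime to 5 prime signal ratio of Actb and Gapdh as a covariate, the adjusted p was 0.165 and the change -0.59. The Actb ratio was 1.14 to 1.40 in controls and 1.31 to 1.51 in mutants on the log2 scale.

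Foxc1 gave no steady picture. Its brighter probe set, 1419485_at, read 8.60, 6.59, 7.04 and 8.74 (controls 1 to 4) against 7.50, 7.87, 8.30 and 8.27 (mutants 1 to 4). The controls fell into high values on controls 1 and 4 and low values on controls 2 and 3, where it was not above background, and the mutants lay between them. The change was -0.14 (SE 0.36, adjusted p = 0.891). Without controls 2 and 3 it was -0.79 (SE 0.29, adjusted p = 0.606), with no overlap left between 2 controls and 4 mutants. Without array weights it was 0.24, and without control 1 or control 4 it was 0.88 or 0.80, so its direction depended on how much controls 2 and 3 counted. The dimmer probe set was above background on 1 control and 4 mutant arrays, at 6.41 ± 0.76 and 7.01 ± 0.49 (SD, n = 4 each).

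The FoxF genes were near background. Foxf1, on probe set 1434939_at, read 7.98, 7.0, 7.81 and 6.84 (controls 1 to 4) against 7.6, 7.23, 6.91 and 6.81 (mutants 1 to 4). The ranges overlapped almost fully, and the change was -0.48 (SE 0.36, interval -1.25 to 0.28, adjusted p = 0.594). It was above background on 3 control and 4 mutant arrays. The second Foxf1 probe set was above background on no array. Both Foxf2 probe sets were removed by the filter. The brighter one exceeded background on 1 control and 1 mutant, with 5.97 ± 1.17 in controls and 5.79 ± 0.54 in mutants (SD, n = 4 each), and the other on 0 control and 2 mutant arrays. A change of either Foxf2 probe set was not detectable at these signals.

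The neighbours of the 2 pairs gave no change past the threshold. Foxl1, next to Foxc2, was above background on 0 arrays. Mthfsd, between Foxf1 and Foxc2, changed by -0.22 (SE 0.58, adjusted p = 0.895), and Gmds, next to Foxc1, by 0.15 (SE 0.30, adjusted p = 0.863) on its brightest probe set. Foxq1, next to Foxf2, exceeded background on 0 controls and 4 mutants on its brightest probe set. Its change there was 0.50 (SE 0.46, limma adjusted p = 0.668). Irf8 was removed by the filter.

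**Figure D2:**
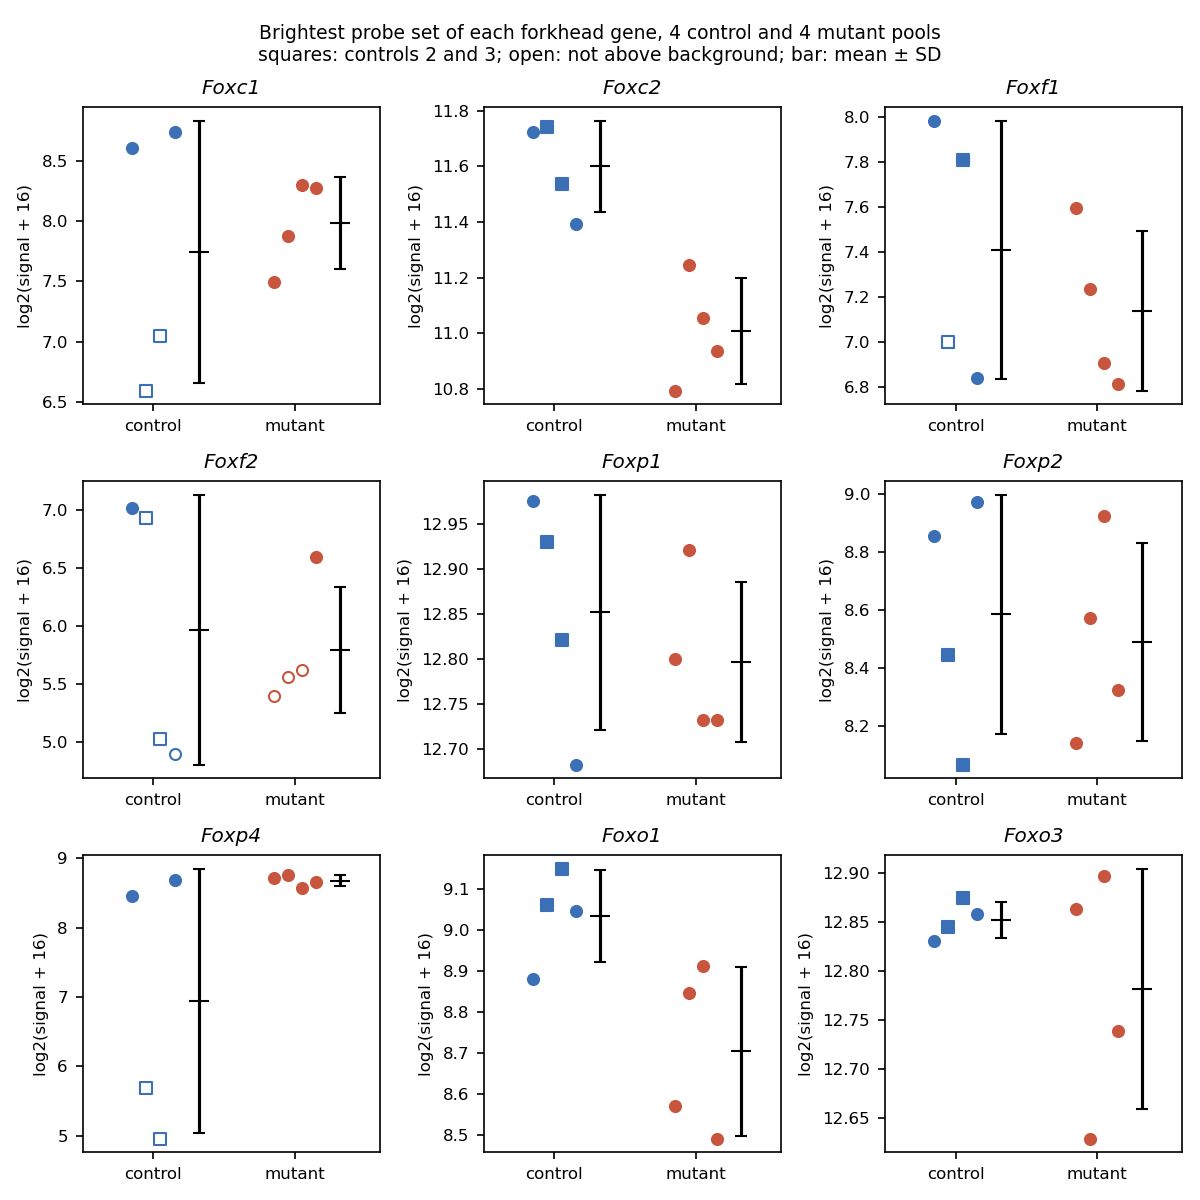
Normalized log2(signal + 16) of the brightest probe set of each of the 9 genes, with 1 point per pool, the mean and SD of the 4 pools of a group as a black bar, squares for controls 2 and 3 and open symbols where the probe set was not above background. The Foxc2 panel is the only one of the 9 in which the groups do not overlap, and in the Foxc1 and Foxp4 panels controls 2 and 3 lie below the other pools. The axes differ between panels and do not start at 0.

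Foxp1, a repressor of cardiomyocyte and endothelial programmes, differed by little on its bright probe sets. The brightest, 1435222_at, read 12.98, 12.93, 12.82 and 12.68 (controls 1 to 4) against 12.80, 12.92, 12.73 and 12.73 (mutants 1 to 4), which overlap. Its change was -0.10 (SE 0.07, interval -0.24 to 0.05, adjusted p = 0.567). The next, 1455242_at and 1435221_at, changed by -0.12 (SE 0.06) and -0.16 (SE 0.11). Under this normalization, these intervals leave room for a decrease of 0.25 and of 0.39, and for little or no increase. With arrays centred on their medians these 2 changed by 1.72 and 1.33, or 0.59 and 0.21 relative to the median of all tested probe sets.

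A further Foxp1 probe set, 1421142_s_at, of a type that can match more than one gene, had no overlap. It read 9.12, 9.16, 8.97 and 8.88 (controls 1 to 4) against 8.87, 8.65, 8.76 and 8.56 (mutants 1 to 4), a change of -0.34 (SE 0.18, adjusted p = 0.455). The remaining 4 changed by -0.25, -0.35, 0.84 and -1.16. None passed. The last, 1443258_at, exceeded background on 2 controls and 1 mutant. Its value of 7.26 on mutant 2 stood apart from 5.13 to 5.36 on the other mutants, and its change without controls 2 and 3 was -0.60. The probe set with the positive change, 1438802_at, exceeded background on 2 controls and 4 mutants. Over its 8 tested probe sets Foxp1 had a mean change of -0.20 (SE 0.13, adjusted p = 0.502).

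Foxp2, the family member best known from brain and lung, gave 3 tested probe sets out of 6. The one with the smallest p, 1440108_at, read 7.92, 8.69, 7.93 and 7.83 (controls 1 to 4) against 7.46, 7.58, 7.39 and 7.30 (mutants 1 to 4). The groups did not overlap, and control 2 stood above the other controls. The change was -0.58 (SE 0.27, adjusted p = 0.382), and without controls 2 and 3 it was -0.50 (adjusted p = 0.745).

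The other Foxp2 probe sets were less even. The brightest, 1438231_at, read 8.86, 8.45, 8.07 and 8.97 (controls 1 to 4) against 8.14, 8.57, 8.93 and 8.32 (mutants 1 to 4), with full overlap, and a change of -0.21 (SE 0.26, adjusted p = 0.762) that was -0.48 without controls 2 and 3. The remaining tested one, 1438232_at, changed by -0.10 (SE 0.28), and by 0.02 without controls 2 and 3. Probe set 1458191_at did not pass the filter, and read 7.44, 7.41, 6.85 and 6.94 (controls 1 to 4) against 5.37, 6.48, 5.43 and 5.05 (mutants 1 to 4). These groups do not overlap, but it was above background on 3 control arrays and only 1 mutant array. With no filter its adjusted p was 0.186.

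Foxp4, which overlaps with Foxp1 in function, was set by controls 2 and 3. Its brightest probe set, 1431088_at, read 8.46, 5.69, 4.96 and 8.69 (controls 1 to 4) against 8.72, 8.76, 8.58 and 8.66 (mutants 1 to 4). Controls 1 and 4 lay close to the mutants, while controls 2 and 3 were not above background. The change was 0.84 (SE 0.48, adjusted p = 0.481) with all arrays and 0.12 (SE 0.21, adjusted p = 0.924) without controls 2 and 3. Without control 1 or without control 4 it passed as higher in the mutants (adjusted p = 0.0154 and 0.0199), with 2 of the 3 remaining controls not above background. The second tested probe set changed by -0.15 (SE 0.32, adjusted p = 0.874).

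Foxo1, a FoxO factor required for embryonic vessel growth, had negative changes that did not pass. Its brightest probe set, 1416982_at, read 8.88, 9.06, 9.15 and 9.05 (controls 1 to 4) against 8.57, 8.85, 8.91 and 8.49 (mutants 1 to 4). The groups met at control 1 and mutant 3. The change was -0.28 (SE 0.20, interval -0.69 to 0.14, adjusted p = 0.568). The next, 1416983_s_at, read 8.72, 8.68, 7.74 and 8.46 (controls 1 to 4) against 8.10, 7.38, 8.20 and 8.19 (mutants 1 to 4), which overlap through control 3. It changed by -0.43 (SE 0.26, adjusted p = 0.499), and by -0.71 (adjusted p = 0.644) without controls 2 and 3. The dimmest tested one, 1456529_at, changed by -0.02 (SE 0.49).

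Foxo3, a FoxO factor of quiescence and stress defence, had the narrowest intervals of the set beside the bright Foxp1 probe sets. Probe set 1434831_a_at read 12.83, 12.85, 12.87 and 12.86 (controls 1 to 4) against 12.86, 12.63, 12.90 and 12.74 (mutants 1 to 4). Mutant 2 was the lowest and mutant 3 the highest of the 8. The change was -0.04 (SE 0.07, interval -0.18 to 0.10, adjusted p = 0.833). The second, 1434832_at, changed by -0.05 (SE 0.09, interval -0.25 to 0.15). Under this normalization, a change of either over 0.25 on the log2 scale in either direction lies outside these intervals. With arrays centred on their medians the changes were 1.63 and 1.58, or 0.51 and 0.45 relative to the median of all tested probe sets.

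**Figure D3:**
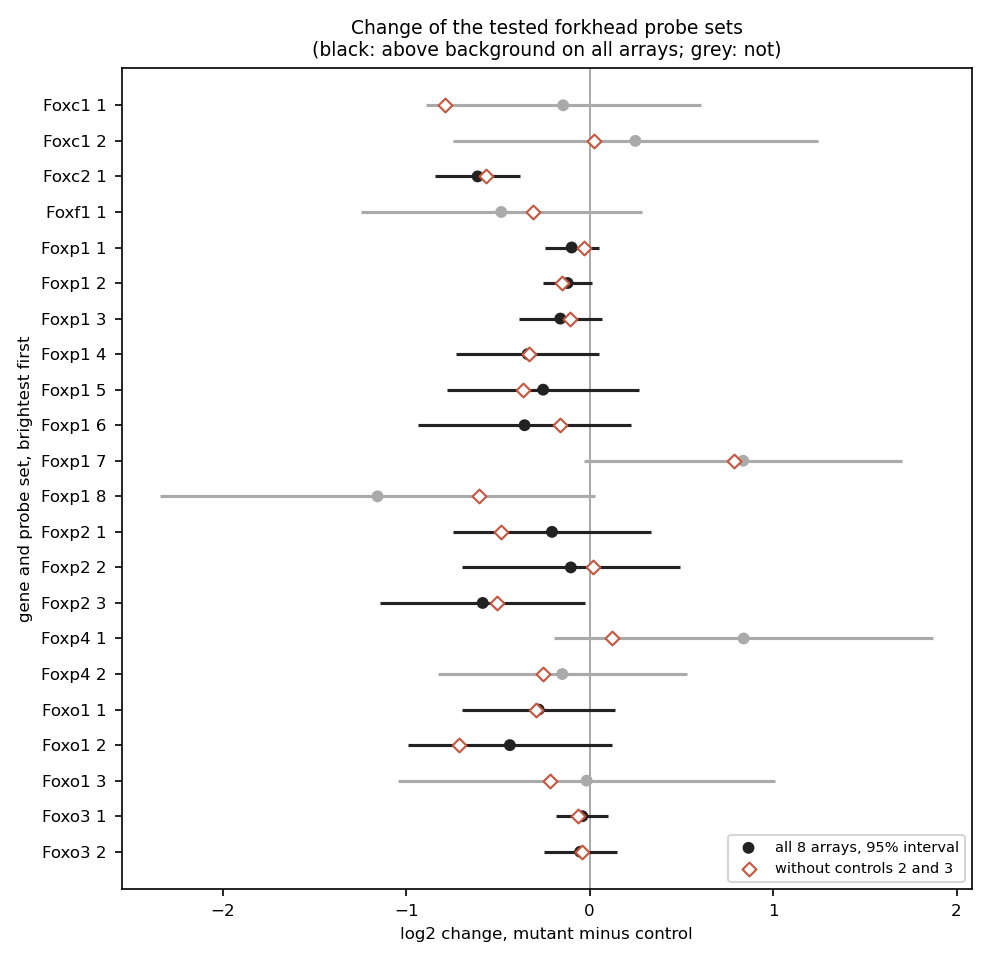
Log2 change, mutant minus control, of the 22 tested forkhead probe sets with 95% intervals from limma, black for those above background on all 8 arrays and grey for the rest. Open diamonds give the change without controls 2 and 3. Foxc2 (-0.61) and Foxp2 1440108_at (-0.58) are the only tested ones whose interval lies wholly below 0, and the diamonds of Foxc1 1 (-0.79) and Foxp4 1 (0.12) are far from their points.

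Counted over the 22 tested probe sets, 0 passed the adjusted threshold in either direction, and over all tested probe sets 0.0185% passed as lower and 0.0259% as higher. At an unadjusted p under 0.05, 2 were lower and 0 higher, Foxc2 and Foxp2 1440108_at, against 5.33% and 7.31% of all. The groups did not overlap for 3, all lower, and for 0 as higher, against 3.19% and 4.44% of all. These 3 were Foxc2, Foxp1 1421142_s_at and Foxp2 1440108_at.

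Among the 14 forkhead probe sets above background on all 8 arrays, which belong to 5 genes, 14 had a negative change, with a median of -0.23. Over the 15006 tested probe sets above background on all arrays, 52.1% were negative and the median was -0.01. Probe sets of one gene read the same transcripts and are not independent. The background limit was highest on controls 2 and 3, so a dim probe set stayed only where those controls read high. The 3 tested members with positive changes were Foxc1 1419486_at, Foxp1 1438802_at and Foxp4 1431088_at. They were above background on all 4 mutants but on only 1, 2 and 2 of the controls. Controls alone kept them out, so the filter favours negative changes in this count. The count was 13 of 14 without controls 2 and 3, with 52% of the 15006, and 12 of 14 on the authors' scale, with 51.1% of the 15006, where both Foxo3 probe sets were positive. With arrays centred on their medians it was 2 of 14, with 7.96% of the 15006. Relative to the median of all tested probe sets, 9 of the 14 were lower both on the authors' scale and with centred arrays, against 37.8% and 36.6% of the 15006. With centred arrays, the 5 above it were the 3 brightest of Foxp1 and both of Foxo3.

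**Figure D4:**
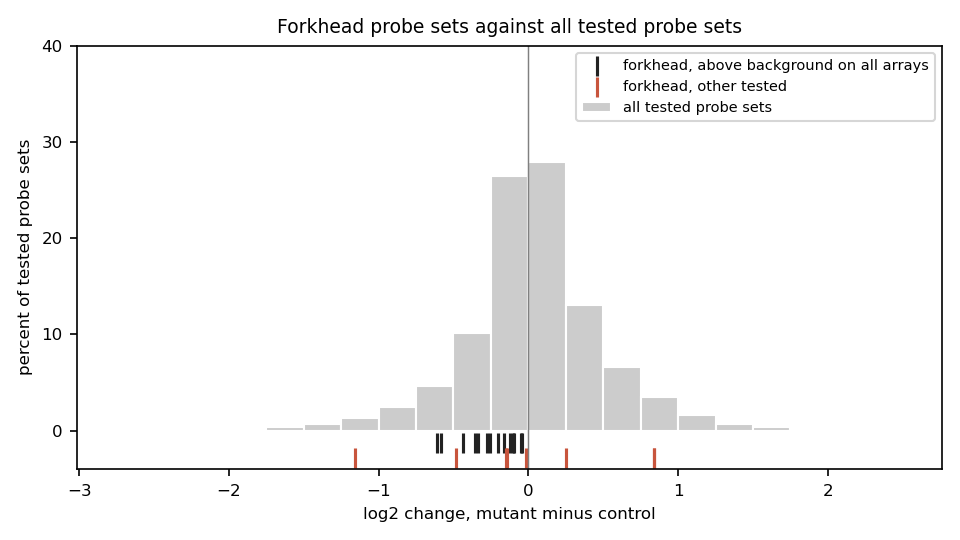
Distribution of the log2 change over all 27022 tested probe sets (grey bars, percent in bins of 0.25) with the 22 tested forkhead probe sets as ticks below, black for the 14 above background on all arrays and red for the other 8. The black ticks run from -0.61 to -0.04, and the bars are centred near 0.03.

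Whether paralogs changed unequally was tested on the within-array difference between their brightest probe sets, as the mutant mean minus the control mean. These means carry no array weights, so controls 2 and 3 count fully. The pair values therefore differ from differences between the weighted changes given above. No pair of 5 passed (two-sided exact permutation test over the 8 arrays, smallest possible p 0.0286, Benjamini-Hochberg over 5 pairs). For Foxc2 less Foxc1 the unweighted value was -0.83 (exact p = 0.343, adjusted 0.571). It was 0.22 without controls 2 and 3 and 0.03 on the authors' scale with all 8 arrays, so its sign turned with both choices. Foxo1 less Foxo3 was -0.26 (exact p = 0.114, adjusted 0.357), and Foxp4 less Foxp1 was 1.79 (p = 0.143, adjusted 0.357). The Foxp4 pair value was 0.15 without controls 2 and 3, where Foxp4 was not above background, and 0.92 on the authors' scale. Foxp2 less Foxp1 was -0.04 (exact p = 0.914) and Foxf1 less Foxf2 -0.09 (p = 0.943), both with an adjusted p of 0.943. Foxf2 here is a probe set near background, so its pair holds little information.

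Genes reported with the FoxC factors in vessels and mesoderm did not pass as single genes. Of 28 listed, 22 were tested, 10 with negative and 12 with positive changes, and 0 passed. The median was 0.07, beside 0.02 for the brightest probe sets of all 12069 tested genes. The smallest p belonged to Pdgfra, a growth factor receptor of mesenchyme, at -0.73 (SE 0.13, adjusted p = 0.0654). The lectin Clec14a and the connexin Gja4 of vessels, at 1.70 and 1.17 (adjusted p = 0.146 and 0.1996), exceeded background on 2 controls and 4 mutants.

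In the list of hedgehog components and genes reported with the FoxF factors, 1 of 17 tested fell and 0 rose, with a median of 0.07. The gene that fell was Tek, at -0.72 (SE 0.07, adjusted p = 0.000172), an angiopoietin receptor whose own promoter drives the Cre of the mutants. The T-box factor Tbx5 had 0.26 (SE 0.06, adjusted p = 0.141). Gli3, a transcription factor of the hedgehog pathway, had -0.43 (SE 0.12, adjusted p = 0.240).

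Of the partners and reported targets of the FoxP factors, 19 were tested and 0 passed, with a median of -0.05. The NuRD subunit Rbbp7 had -0.11 (SE 0.04, adjusted p = 0.307) and the mucin-like protein Pdpn 0.58 (SE 0.20, adjusted p = 0.296). Mbd3, another NuRD subunit, had 1.41 (SE 0.44, adjusted p = 0.253) but exceeded background on only 2 of the controls.

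The FoxO pathway showed no gene past the threshold on either side. Of 25 tested regulators 13 had negative changes (median -0.01), and of 41 tested reported targets 16 did (median 0.04), with 0 past the threshold in both lists. Among regulators, Skp2, which marks FoxO1 for degradation, had -0.41 (SE 0.13, adjusted p = 0.275), and the kinases Sgk1 and Prkaa2 had 0.30 and 0.17 (adjusted p = 0.281 and 0.40). Among targets, the stress protein Sesn3 had -0.59 (SE 0.17, adjusted p = 0.244) and the growth arrest gene Gadd45b 0.49 (SE 0.19, adjusted p = 0.332). Angpt2, a vessel destabilising ligand, was above background on 1 control and 4 mutant arrays, with 6.02 ± 0.97 and 7.52 ± 0.33 (SD, n = 4 each).

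Markers of cell types that the canal could hold are set beside the Foxc2 value. Of 18 tested cushion mesenchyme markers 11 had negative changes and 0 passed, and the summed normalized signal of the 19 was 74571 to 76012 in controls and 60770 to 75390 in mutants. The markers with the smallest p were Sox9 (-0.54, adjusted p = 0.0585), Pdgfra and Twist1 (-1.33, adjusted p = 0.334). Over the brightest probe sets of all 12069 tested genes, 5643 changes were negative and 6426 positive. Of 22 tested endothelial markers 16 had positive changes, with a median of 0.36, and Tek alone passed, as lower. Only 13 of the 23 endothelial markers were above background on all 8 arrays, and the part of background in their changes was not tested. Their summed signal overlapped, at 18953 to 21369 in controls and 20177 to 21100 in mutants, and their mean log2 value did not, at 8.47 to 9.01 and 9.19 to 9.30. Of 20 cardiomyocyte markers 18 had positive changes (median 0.12), and of 13 tested epicardial markers 12 (median 0.50), with 0 past the threshold. At an unadjusted limma p under 0.05, 12 of 20 cardiomyocyte, 8 of 13 epicardial and 10 of 22 endothelial markers were higher. Lower were 0, 0 and 2. Of the 18 cushion mesenchyme markers 5 were lower and 1 higher. Of all 12069 genes 677 were lower and 882 higher. The summed signal of the cardiomyocyte markers was 173811 to 181317 in controls and 187060 to 194100 in mutants. That of the 15 epicardial markers was 15094 to 16956 and 18073 to 22965, with no overlap between groups in either list.

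Other sources of forkhead transcripts were also read. Summed signals were 22046 to 23971 in controls and 24680 to 26625 in mutants for 15 markers of the second heart field and dorsal mesenchyme, of which Osr1 and Fgf8 were above background on no array. They were 6735 to 7723 and 4420 to 5851 for 9 neural crest markers, of which Foxd3 was above background on none. Only 6 of the 15 former and 3 of the 9 latter markers were above background on all 8 arrays. The groups did not overlap in these 2 sums, but their mean log2 values did, at 9.63 to 9.93 and 9.79 to 10.03 for the former and 8.40 to 9.06 and 8.41 to 8.91 for the latter. They were 1753 to 2960 and 1661 to 3906 for 15 foregut and liver markers, and 50165 to 70463 and 51465 to 62506 for 14 blood markers. In both of these each marker was above background on at least 1 array. Only 1 of the 15 foregut and liver markers and 7 of the 14 blood markers were above it on all 8. The part of these cell types in the Foxc2 result was not tested.

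The genes whose log2 values were most like those of each member over the 8 arrays were named from 12068 others by Pearson r, as a description. For Foxc2 these were the endosome protein Eea1 (r = 0.98, Spearman 0.90) and the chemokine Ccl2 (r = 0.97, Spearman 0.98), and with group means removed r was 0.92 and 0.89. For Foxc1 they were Nepro and the laminin chain Lamc1 (r = 0.98 and 0.97), and for Foxf1 Zfp729a and Larp7 (0.96 and 0.95). They were Ifi209 and Slc25a14 for Foxp1 (0.97 and 0.96), Cramp1l and Ndel1 for Foxp2 (0.93 and 0.92), and Zfp825 and Fbxw9 for Foxp4 (both over 0.99, on a member whose spread lay in controls 2 and 3). They were Socs1 and Cetn2 for Foxo1 (0.98 and 0.97) and Adam9 and Nup155 for Foxo3 (0.97 and 0.96). All values share the 8 arrays and their background, and the best of 12068 genes is high by selection.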

How the data were processed

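The deposited intensities of the 8 arrays were made by the authors with MAS5, per the submitters' processing notes, and have no stated version or detection call. Each array has a mean of 714.971 and a median of 71.5 to 268. The design text mentions 2 excluded noisy controls without naming them. All 4 control columns were used.

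Values were taken as log2(signal + 16) and quantile normalized. The 64 array controls and the dimmest 40% by mean over all arrays were removed. The other 27022 were fitted with limma 3.58.1 in R 4.3.3, with array weights (0.302 and 0.35 for controls 2 and 3, 0.867 to 2.80 otherwise) and eBayes with trend and robust. Tests were two-sided, with Benjamini-Hochberg adjustment over all 27022 and a threshold of 0.05. Means and SDs carry no weights. The fit was tested on simulated data. Names came from the platform's annotation, and the 31 member probe sets matched RefSeq by Entrez ID. Members, lists and tests were chosen with earlier results of these data known. Named beside the members are Gata4, Tek and the 2 genes most like each member. Named too are the 3 genes of smallest p in the lists of partners, pathway genes, targets, other forkhead genes and cushion mesenchyme markers. So is any list gene past the threshold. In the other marker lists no gene but Tek is named by its p. Neighbours and further other forkhead genes were named after values were seen. Alternatives varied scaling, pseudocount, filter, weighting, covariate, block and arrays. The number of arrays limits the precision.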

Additional observations from a re-analysis of the deposited data

Results flagged for a closer look

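In 5 of the 62 groups of 4 values (31 probe sets, control and mutant), 1 array stood far from the other 3 by Dixon's test at its 95% critical value. Chance gives about 1 in 20 groups. On control 2, Foxp2 1438232_at had 8.92 against 7.53 to 7.70 on the other controls, Foxp2 1440108_at had 8.69 against 7.83 to 7.93, and Foxo1 1456529_at had 4.72, not above background, against 6.79 to 6.98. On mutant 2, Foxp1 1443258_at had 7.26 against 5.13 to 5.36, and Foxo1 1416983_s_at had 7.38 against 8.10 to 8.20.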

How the results depend on the processing

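Of 249 member values under alternatives other than centring or leaving out 1 array, 231 kept direction and side of the threshold, 4 newly passed and 14 turned sign. With 1 array left out, 160 of 176 kept both, 7 newly passed and 9 turned sign. The cause was not tested. On the authors' scale, 59 of all probe sets were higher and 40 lower, 1 member was lower (Foxc2), and 3 list genes were higher and 3 lower. Foxc1 1419486_at was then -0.44, the Foxo3 probe sets 0.064 and 0.038, Foxc2 less Foxc1 0.034 and Foxf1 less Foxf2 0.00059. With arrays centred on their medians, 17251 were higher and 1956 lower, 12 of 22 members, Foxc2 among them at 1.05, passed as higher and 1 as lower (Foxp1 1443258_at), and 181 list genes higher and 8 lower. Relative to the median of all, 7 members turned sign: Foxc1 was 0.23 and -0.28, Foxp1 0.49, 0.59 and 0.21 on its 3 brightest probe sets and Foxo3 0.51 and 0.45; the Foxc and Foxf pair values were 0.034 and 0.00059. A pseudocount of 64 gave 22 higher, 12 lower and 1 member lower (Foxc2), and one of 1 gave Foxo1 1456529_at at 0.072. With no filter there were 14 higher, 12 lower and 1 member lower (Foxc2), with Foxc1 1419485_at at 0.080 and Foxo1 1456529_at at 0.11. A filter of above background on 4 or more arrays put the latter at 0.0017. With no array weights 10 were lower, Foxc1 1419485_at was 0.24 and Foxo1 1456529_at 0.27. Without controls 2 and 3, 1 was higher and 1 lower both with and without weights (the weighted fit was added after seeing the data). Foxp2 1438232_at was then 0.017 without weights and 0.013 with them, Foxc1 1419486_at -0.074 with them and Foxc2 less Foxc1 0.22. The 3 prime to 5 prime covariate gave 2 higher, 2 lower and Foxp2 1438232_at at 0.041. Plain eBayes gave 0 higher and 0 lower. The mean over Foxc1 probe sets was 0.038. With 1 array left out, 3 to 1425 of all probe sets were higher and 2 to 380 lower, with the highest counts without control 1 and without control 4, and 0 to 1 members were higher and 0 to 1 lower. Values that turned sign ranged from -0.43 to 0.88 (Foxc1 1419485_at), -0.42 to 0.18 (Foxp2 1438231_at), -0.37 to 0.039 (Foxp2 1438232_at), -0.23 to 0.43 (Foxo1 1456529_at) and -0.11 to 0.048 (Foxo3 1434832_at). So did the pair values of Foxf1 less Foxf2, -0.58 to 0.35, and Foxp2 less Foxp1, -0.22 to 0.15.

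With the replicate number as a block, 26 were higher, 34 lower and 1 member lower, Foxc2 at -0.63 (limma, adjusted p = 0.0248). Same-numbered arrays correlated at -0.11, 0.01, -0.13 and 0.17 and did not all correlate best with their own number, so the numbers were not taken to pair the arrays.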

Other observations

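Among 28 other forkhead genes with a probe set, 12 were tested on their brightest probe set, 9 with positive and 3 with negative changes, and 0 passed (median 0.07). Of the 28, 8 were above background on no array, among them Foxd1, Foxd3, Foxj1 and Foxs1. The 7 that were above background on all 8 arrays changed by -0.16 (Foxj2), 0.12 (Foxj3), 0.02 (Foxk1), 0.03 (Foxk2), -0.13 (Foxn2), 0.04 (Foxn3) and 0.11 (Foxo4, another FoxO factor), with adjusted p from 0.676 to 0.963. The smallest p values belonged to genes near background. Foxa3, a factor of foregut and liver, had 7.43 ± 0.52 in controls and 5.49 ± 0.62 in mutants (SD, n = 4 each), without overlap, and exceeded background on 3 controls and 1 mutant (adjusted p = 0.236). Foxm1, a factor of mitosis, changed by 0.89 (SE 0.34, adjusted p = 0.331) and was above background on 2 control and 4 mutant arrays. Foxh1, a partner of Smad proteins, had 6.44 ± 1.05 and 7.26 ± 0.23 and exceeded background on 1 control and 4 mutants.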
